A study of Mus musculus with 15 samples.

Results

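Lipid-associated macrophage genes are a set of transcripts that macrophages use to take up, carry, store and export lipid, together with glycoproteins and a lectin seen beside them in lipid-laden macrophages. The set comprised 10 genes, Apoe, Abca1, Abcg1, Lpl, Cd36, Fabp5, Plin2, Spp1, Gpnmb and Lgals3, chosen by name from the 42454 entries of the deposited table. All 10 were found once in the table, and all 10 passed the filter for testing. RNA-seq of sorted mouse macrophages (CD11b-positive, CD64-positive) gave their levels in 5 groups of ear skin cells, 15 libraries in all with 3 per group. Nerve-associated macrophages recruited after injury (recsNAM, GFP-positive and Tomato-negative), resident nerve-associated macrophages after injury (injsNAM, GFP-positive and Tomato-positive) and interstitial macrophages after injury (injIM, GFP-negative and Tomato-negative) came from the left ear, 10 days after it was punched. Resident nerve-associated macrophages (sNAM) and interstitial macrophages (IM) came from the right ear, which was not punched. All animals had the genotype given as Cxcr1creERT2/gfp R26tdT/+, written with CX3CR1 in the protocol, and all had received tamoxifen 3 weeks before the punch, so every group carries both the reporters and the drug. GFP and the inducible Cre sit at the Cx3cr1 locus, and tdTomato needs Cre, so a cell that turned Cx3cr1 on only after tamoxifen is green without being red. The punched and unpunched ears belonged to the same 3 mice, the labels do not tie libraries to mice, and age, sex and strain are not stated. The reporter tag of the labels disagrees with the titles and the protocol's gates for 2 groups. It gives injIM as GFP-positive and Tomato-positive and sNAM as GFP-negative and Tomato-negative. The groups here follow the titles.

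Macrophages clear lipoproteins, dead cells and membrane debris, and the lipid they take in must be burnt, stored or passed on. Fatty acids enter through scavenger receptors and after hydrolysis of triglyceride, are carried by fatty acid binding proteins and are parked in lipid droplets. Surplus cholesterol activates the nuclear receptor LXR, which raises the transporters and the apolipoprotein that move cholesterol out of the cell. In adipose tissue, arterial plaques and injured nerve, macrophages are known for raising many of these genes together, often with the receptor Trem2.

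All levels are normalized counts, in which the depositors scaled each library's reads by a single factor, and a mean ± SD has n = 3 libraries. Recovered depth was 20.442 to 23.42 M reads per library (M, 1000000 reads) in recsNAM, 16.889 to 19.52 in injsNAM, 20.398 to 21.931 in injIM, 5.636 to 18.633 in sNAM and 20.62 to 23.794 in IM. The injsNAM and sNAM libraries stood apart, with 10952 to 12302 genes detected in injsNAM and 8581 to 12246 in sNAM, against 13794 to 15080 in recsNAM, 16057 to 16416 in injIM and 15202 to 15554 in IM. They also varied more, so the test gave each group its own weight, 0.311 for injsNAM and 0.175 for sNAM against 1.67 for recsNAM, 3.21 for injIM and 3.43 for IM. Summed pan-macrophage markers (8 of 8 in the table, none at 0 in any library) ran from 19949 CPM to 30505 CPM (counts per 1000000 reads) over the 15 libraries. They were wholly higher in recsNAM (25850 to 30505 CPM) than in injIM (20172 to 23231 CPM), and wholly lower in injIM than in IM (23508 to 23706 CPM). Not every marker followed these sums. Cd68, also in this list, was called lower in recsNAM than in injIM by limma (log2 difference -0.49, adjusted p = 0.0341). That call was lost under 13 of 28 other settings. The largest means of the list in IM were those of Lyz2 (128169 normalized counts) and Cd14 (126963). Adipocyte markers, a cell type with strong Lpl, Cd36 and Plin2, summed to at most 23.9 CPM in any library and Adipoq was at 0 in all 15, where the lowest single values were 169 CPM for Lpl, 232 CPM for Cd36 and 198 CPM for Plin2. Endothelial markers, of another cell type with Cd36, summed to at most 40.1 CPM. In each library 4 to 7 of the 7 adipocyte markers were at 0, and a 0 in this table does not show that a gene was silent. Whether adipocytes or endothelial cells added to the levels of these genes was not tested. A gene is said to rise or fall where limma gave an adjusted p under 0.05 over the 8656 genes tested. Differences are on the log2(value + 100) scale, which understates changes of low genes, and fold values are ratios of group means. In such bulk samples, fewer cells of a type and less RNA per cell cannot be told apart.

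**Figure D1:**
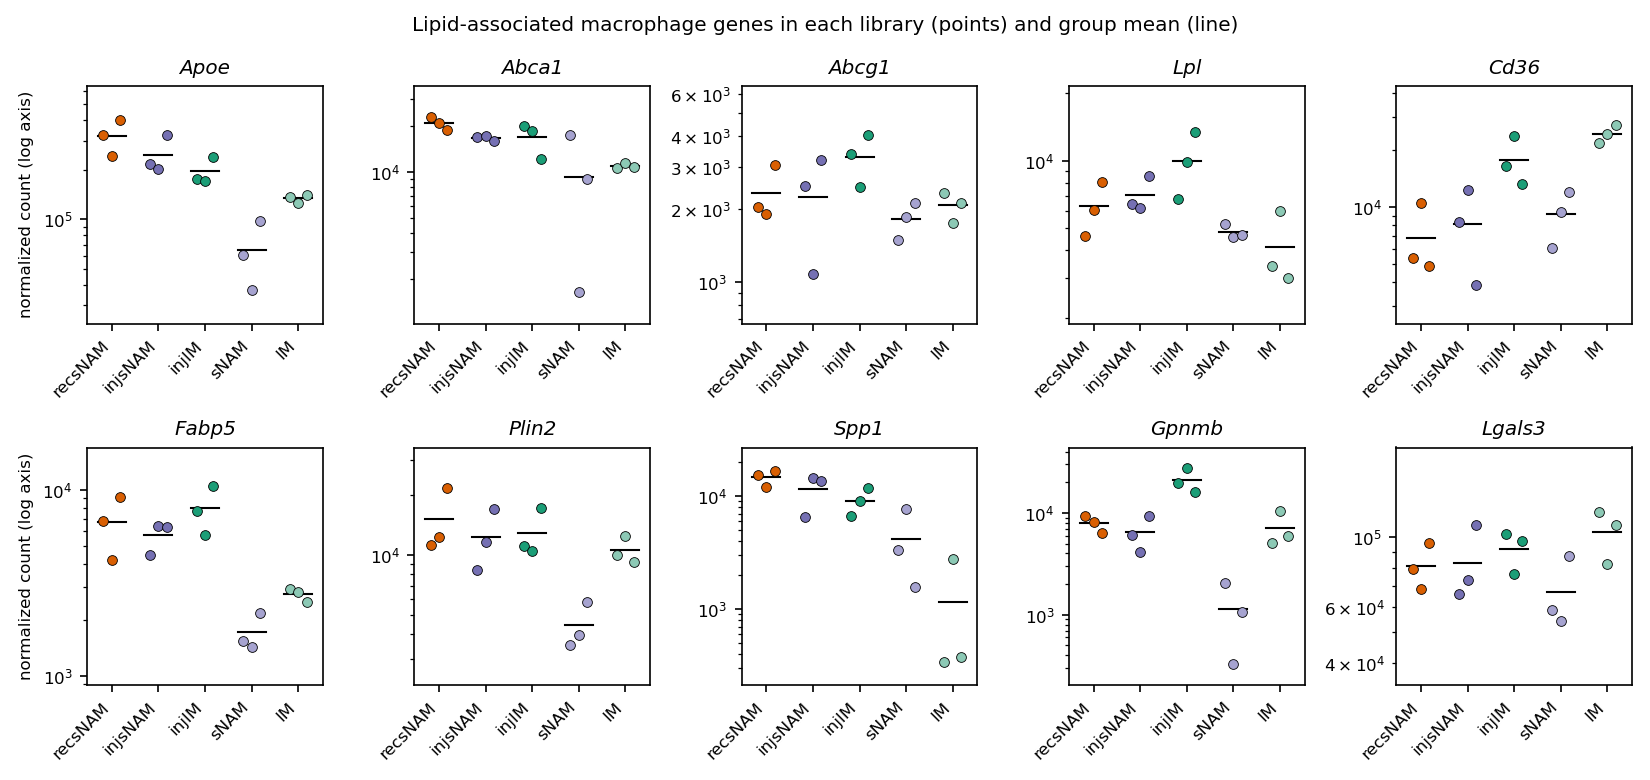
Normalized counts (log axis) of the 10 lipid-associated genes in each of the 15 libraries, with 1 point per library and a line at the mean of each group of 3. Spp1, Gpnmb, Fabp5 and Lpl lie higher in all 3 injIM libraries than in all 3 IM libraries, Cd36 is highest in IM, and the sNAM points of Abca1 and Gpnmb are widely spread.

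Interstitial macrophages of the punched ear held more of 7 of the 10 lipid-associated transcripts than those of the unpunched ear, and the principal fit called none lower. Spp1, Gpnmb, Fabp5, Lpl, Abcg1, Abca1 and Apoe rose, in that order from 7.91-fold for Spp1 and 2.95-fold for Gpnmb and 2.91-fold for Fabp5 to 1.45-fold for Apoe. The fold of Spp1 was 25.5 without IM replicate 2, the 1 IM library with a high value. Cd36, Plin2 and Lgals3 did not pass. Of all 8656 genes tested, 4.15% were called higher in this comparison and 4.03% lower (8.18% in all). Before adjustment, 20% passed p under 0.05. The set was chosen with earlier results of these data known, so its share beside that of all genes is a description and not a test. On the log2 scale the 10 genes had a median of 0.61 and all tested genes one of 0.03. Values of all 3 injIM libraries lay above all 3 IM libraries for the same 7 genes, against 13.5% of tested genes.

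The count of 7 depended on how the spread between libraries was modelled. When the sNAM and injsNAM libraries were left out of the fit, an alternative added after the data were seen, Spp1, Gpnmb, Fabp5 and Lpl were still called and Apoe, Abca1 and Abcg1 were not. DESeq2 on the recovered reads called Spp1, Fabp5 and Lpl, a limma fit with 1 spread for all groups called Spp1, and edgeR called none of the 10, with 2 genes higher and 2 lower over the whole table. With IM replicate 3 left out there were 4 calls.

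**Figure D2:**
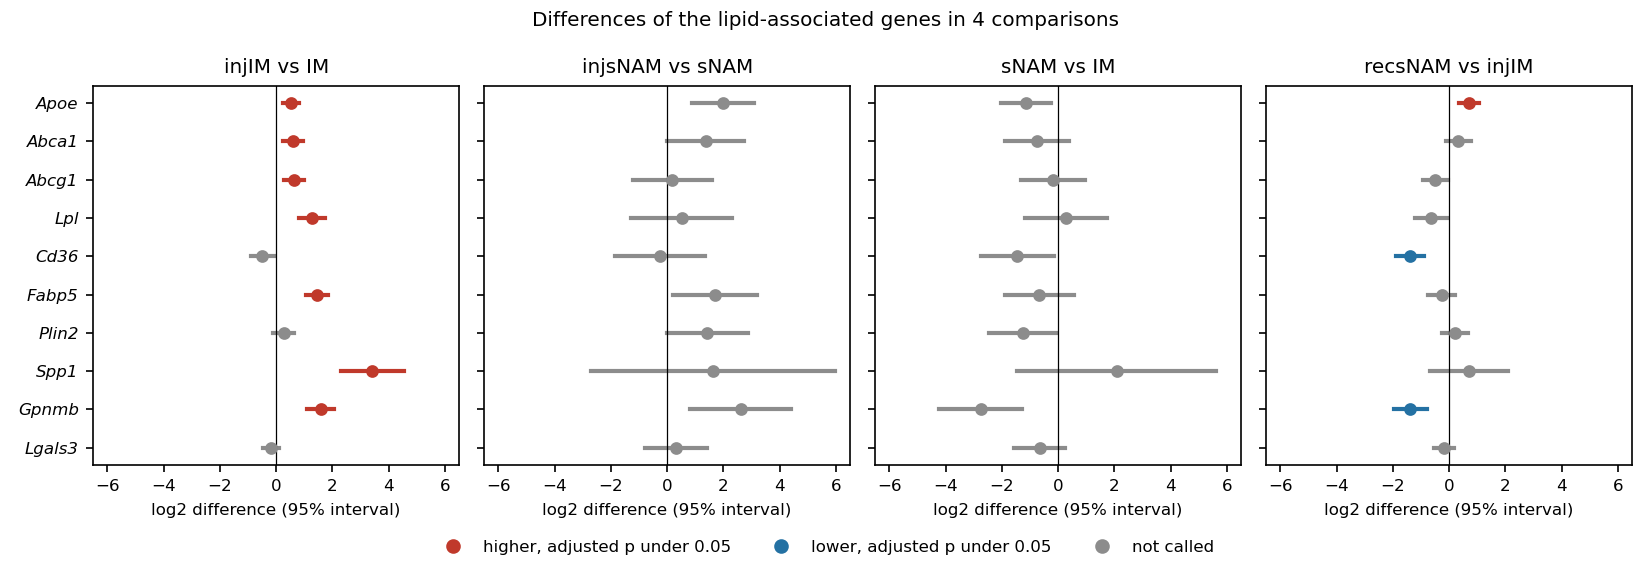
Log2 differences (points) with 95% intervals (lines) of the 10 genes in 4 comparisons, the first-named group over the second; red marks genes called higher, blue genes called lower and grey genes not called. Intervals are narrow for injIM against IM and wide wherever the resident nerve-associated groups enter, as for Spp1 in sNAM against IM (-1.47 to 5.62).

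Among the secreted and surface glycoproteins, Spp1 encodes osteopontin, a secreted phosphoprotein that binds integrins and CD44. It measured 15348, 12054 and 16861 normalized counts in recsNAM, 6525, 14592 and 13564 in injsNAM, 6623, 9074 and 11748 in injIM, 3365, 7697 and 1556 in sNAM and 339.5, 2752 and 378 in IM. The 3 groups of the punched ear were all above IM without overlap, and IM replicate 2 was far above the other IM libraries. Spp1 rose in injIM against IM (log2 difference 3.42, SE 0.52, adjusted p = 0.000946). Leaving out any single library kept this call, with differences from 2.95 to 4.30, but it was lost when only injIM and IM were fitted (adjusted p = 0.064) and in both edgeR fits (adjusted p up to 0.342). The mean was highest in recsNAM (14754 ± 2458), then injsNAM (11560.4 ± 4391) and injIM (9149 ± 2563). All 3 recsNAM libraries lay above all 3 injIM libraries, but the difference did not pass (log2 difference 0.71, 95% interval -0.68 to 2.09, adjusted p = 0.638; called without IM replicate 2, adjusted p = 0.0485). The promoter table holds both RefSeq starts of Spp1 (gene at chr5:104435118-104441050, plus strand), and none of the motifs searched, which are listed with the Abca1 promoter, was found in either.

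Gpnmb encodes a transmembrane glycoprotein of late endosomes and lysosomes that is raised in lipid-laden macrophages. It measured 9343, 8147 and 6371 in recsNAM, 6099, 4115 and 9318 in injsNAM, 19708, 27451 and 15979 in injIM, 2033, 326 and 1075 in sNAM and 5096, 10423 and 5911 in IM. The injIM libraries were above every library of every other group, and the sNAM libraries were below every other library. Gpnmb rose in injIM against IM (2.95-fold, log2 difference 1.58, SE 0.22, adjusted p = 0.000144) and held its call without any 1 library. It fell in recsNAM against injIM, with means of 7954 ± 1495 in recsNAM and 21046 ± 5852 in injIM (log2 difference -1.37, SE 0.27, adjusted p = 0.0033). Spp1 and Gpnmb, which both rose in injIM, thus had opposite orders of the means between recsNAM and injIM, and for Spp1 that difference was not called. In injsNAM the Gpnmb mean was 6511 ± 2626, and its difference from injIM did not pass (log2 difference -1.72, 95% interval -2.85 to -0.59, adjusted p = 0.17).

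The Gpnmb promoter is shown because the level of this gene set the injIM libraries apart from all others. The stretch is from RefSeq, build GRCm38.p6, chr6:49036268-49036567, plus strand, from 250 bases before to 50 bases after the annotated start (gene at chr6:49036546-49070929 in the GENCODE annotation). Capitals mark the only match to the motifs searched, an AP-1 site TGANTCA that begins at base 9 from the RefSeq start.
Gpnmb: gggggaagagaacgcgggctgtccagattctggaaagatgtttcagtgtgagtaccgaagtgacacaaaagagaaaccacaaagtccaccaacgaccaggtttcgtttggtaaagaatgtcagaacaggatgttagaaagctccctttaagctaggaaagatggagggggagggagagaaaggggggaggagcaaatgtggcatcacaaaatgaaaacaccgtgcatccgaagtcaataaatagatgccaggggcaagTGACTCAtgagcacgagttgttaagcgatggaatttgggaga
An AP-1 site was found in 7.81% of the 32851 promoters of this length that were searched. The match is a description of these letters and not of binding.

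Lgals3 encodes galectin-3, a galactose-binding lectin of phagocytes that marks damaged lysosomes. It measured 79146, 68780.1 and 95777 in recsNAM, 66161, 73236 and 109156 in injsNAM, 102257, 76425 and 97215 in injIM, 58704, 54287 and 87563 in sNAM and 120687, 82246 and 109323 in IM. Every pair of groups that was compared overlapped. No comparison called it, and its difference between injIM and IM had a 95% interval of -0.46 to 0.12 (log2 difference -0.17, adjusted p = 0.551).

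Of the genes for lipid release, uptake, carriage and storage, Fabp5 and Lpl rose with the punch in interstitial macrophages while Cd36 and Plin2 were not called. Fabp5 encodes a fatty acid binding protein that shuttles lipids within the cell. It measured 6797, 4184 and 9189 in recsNAM, 4476, 6417 and 6299 in injsNAM, 7675, 5737 and 10526 in injIM, 1548, 1429 and 2178 in sNAM and 2926, 2823 and 2489 in IM. Every library of the punched ear was above every library of the unpunched ear. Fabp5 rose in injIM against IM (2.91-fold, log2 difference 1.47, SE 0.19, adjusted p = 4.91e-05), and the call held without any 1 library. Near-identical retrocopies of Fabp5 are known in the mouse genome, and how the authors' counting shared reads among them is not given in the sources used here.

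Lpl encodes lipoprotein lipase, which frees fatty acids from triglyceride-rich lipoproteins. It measured 4651, 6062 and 8084 in recsNAM, 6400.4, 6195 and 8573 in injsNAM, 6746, 9868 and 13480.0 in injIM, 5244, 4570.3 and 4674 in sNAM and 3419.6, 5978 and 3015 in IM. All injIM libraries lay above all IM libraries, of which replicate 2 was the highest. Lpl rose in injIM against IM (2.42-fold, log2 difference 1.27, SE 0.22, adjusted p = 0.00107). The recsNAM mean of 6266 ± 1726 was below the injIM mean of 10031 ± 3370.1, with overlap, and the difference did not pass (log2 difference -0.65, 95% interval -1.23 to -0.08, adjusted p = 0.189).

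Cd36, a scavenger receptor that takes up oxidized lipoproteins and long-chain fatty acids, had its highest mean in IM. It measured 5368, 10457 and 4878 in recsNAM, 8370.2, 12310.3 and 3880.2 in injsNAM, 16466, 23699 and 13188 in injIM, 6095, 9370.5 and 12073 in sNAM and 21809, 24159 and 27222 in IM. Both interstitial groups were high, IM with a mean of 24397 ± 2714, and all 3 nerve-associated groups were low, with no overlap between any nerve-associated group and the interstitial group of the same ear. Cd36 fell in recsNAM against injIM, 2.58-fold lower by group means (log2 difference -1.40, SE 0.24, adjusted p = 0.00108). The differences of injsNAM against injIM (2.17-fold lower, adjusted p = 0.303) and of sNAM against IM (2.66-fold lower, adjusted p = 0.285) did not pass, although DESeq2 (adjusted p = 0.00757), limma with 1 spread (adjusted p = 0.0319) and a fit of only sNAM and IM called Cd36 lower in sNAM. In injIM against IM, Cd36 was not called (log2 difference -0.49, 95% interval -0.91 to -0.08, adjusted p = 0.153), but it was called lower with the replicate block and without injIM replicate 2 (adjusted p = 0.0377 for the latter).

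Plin2 encodes perilipin-2, the coat protein of macrophage lipid droplets. It measured 11263, 12349.9 and 21713 in recsNAM, 8373, 11636 and 16977 in injsNAM, 11159, 10431 and 17183 in injIM, 3546, 3939 and 5780.1 in sNAM and 10002, 12459.9 and 9241 in IM. The sNAM libraries were below every other library, and the other 4 groups overlapped. The principal limma fit called Plin2 in no comparison, while DESeq2, edgeR with the deposited factors and limma with 1 spread called it lower in sNAM than in IM and higher in injsNAM than in sNAM. Its difference between injIM and IM was 0.26 on the log2 scale (95% interval -0.11 to 0.64, adjusted p = 0.466).

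The cholesterol export genes rose by less in injIM and were the 3 calls lost without the sNAM and injsNAM libraries. Apoe encodes apolipoprotein E, the acceptor apolipoprotein that macrophages secrete. It measured 322137, 240307 and 401419 in recsNAM, 217168, 200984 and 321869 in injsNAM, 176089.8, 171331 and 239738 in injIM, 61029.6, 37275 and 97735 in sNAM and 136959.6, 126033 and 141133 in IM. Every library of the punched ear was above every library of the unpunched ear. The recsNAM libraries were above injIM by a narrow margin, with a lowest recsNAM value of 240307 and a highest injIM value of 239738. Apoe rose in injIM against IM (1.45-fold, log2 difference 0.52, SE 0.14, adjusted p = 0.0207), with the call lost when IM replicate 1, IM replicate 3 or injIM replicate 3 was left out (adjusted p up to 0.0659). It also rose in recsNAM against injIM (1.64-fold, log2 difference 0.70, SE 0.17, adjusted p = 0.012), with the call lost without injIM replicate 1, recsNAM replicate 1 or recsNAM replicate 3 (adjusted p up to 0.104).

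Abca1 encodes the transporter that loads cholesterol onto lipid-poor apolipoproteins. It measured 22752, 20827 and 18661 in recsNAM, 16844, 17273 and 15992 in injsNAM, 20094, 18418 and 12144 in injIM, 17373, 1636 and 8955 in sNAM and 10583, 11431 and 10704 in IM. The IM libraries were close together and below all libraries of the punched ear, while the sNAM libraries were widely spread, with replicate 2, the shallowest library, far below the rest. Abca1 rose in injIM against IM (1.55-fold, log2 difference 0.59, SE 0.17, adjusted p = 0.0357), with the call lost without IM replicate 1, IM replicate 3, injIM replicate 1 or injIM replicate 2 (adjusted p up to 0.235). Abcg1, which exports cholesterol to high-density lipoprotein, measured 2042, 1900.0 and 3034 in recsNAM, 2483, 1076 and 3186 in injsNAM, 3393, 2466 and 4037 in injIM, 1493, 1851 and 2119 in sNAM and 2337, 1749.9 and 2129.9 in IM. Its injIM values were above IM without overlap, and the other groups overlapped. Abcg1 rose in injIM (1.59-fold, log2 difference 0.63, SE 0.17, adjusted p = 0.0292), with the call lost without IM replicate 2, IM replicate 3, injIM replicate 1 or injIM replicate 3 (adjusted p up to 0.134). Neither transporter was called between recsNAM and injIM, where the log2 differences were 0.32 for Abca1 (95% interval -0.12 to 0.76) and -0.49 for Abcg1 (-0.94 to -0.04).

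The Abca1 promoter is shown because Abca1 is a textbook LXR target, and LXR with its partner RXR binds direct repeats spaced by 4 bases. The stretch is from RefSeq, build GRCm38.p6, chr4:53159846-53160145, minus strand, 5′ to 3′ along the gene (gene at chr4:53030787-53159895). Capitals mark the matches to the motifs searched, an E-box CACGTG that begins 147 bases before the annotated start, and a relaxed direct repeat (GGTNA, any 5 bases, GGTNA) on the opposite strand, whose first printed base lies 67 bases before it.
Abca1: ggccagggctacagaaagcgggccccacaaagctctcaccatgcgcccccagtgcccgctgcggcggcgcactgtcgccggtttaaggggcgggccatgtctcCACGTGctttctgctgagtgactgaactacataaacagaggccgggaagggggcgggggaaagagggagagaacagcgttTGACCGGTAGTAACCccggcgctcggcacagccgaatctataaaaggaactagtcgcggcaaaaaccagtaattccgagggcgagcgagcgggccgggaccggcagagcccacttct
The search covered both strands for 5 motifs, which were this repeat, a relaxed direct repeat spaced by 1 base (AGGNCA, any 1 base, AGGNCA) of the kind PPAR binds, the E-box CACGTG, the M-box TCATGTG of MiT/TFE factors and the AP-1 site TGANTCA. The repeats share their kind of half-site, and no motif's letters contain another's. The table holds 10 promoters of 7 of the 10 genes, Apoe, Abca1, Cd36, Plin2, Spp1, Gpnmb and Lgals3. The relaxed repeat spaced by 4 was found in 0.718% of the 32851 promoters searched, which leave out 1 chromosome. It was found in 1 of these 10, that of Abca1. The E-box was found in 7.15% of the promoters searched and in those of Abca1 and Plin2. Matches are descriptions of these windows, and no match says only that the letters are not in this window.

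Resident nerve-associated macrophages of the unpunched ear had lower means for 8 of the 10 genes than interstitial macrophages, and the principal limma fit called none of the 10. By log2 difference, 2 of the 10 genes and 37% of all tested genes were higher in sNAM. DESeq2 called Gpnmb, Apoe, Cd36 and Plin2 lower and Spp1 higher, limma with 1 spread called the same 4 lower, and edgeR called Gpnmb with TMM factors and Gpnmb and Plin2 with the deposited factors. Values of all 3 sNAM libraries lay below all 3 IM libraries for Apoe, Cd36, Fabp5, Plin2 and Gpnmb, 5 of 10, against 18.4% of all tested genes, and no gene of the set lay wholly above, against 9.57%. Limma called 1.05% of the tested genes in this comparison (0.543% higher, 0.508% lower), and 15% had an unadjusted p under 0.05, among them Gpnmb, Apoe, Cd36 and Plin2. Gpnmb came closest, 6.24-fold lower by group means (log2 difference -2.75, 95% interval -4.23 to -1.28, adjusted p = 0.0576), and was called lower under 11 of 27 other settings, among them edgeR and DESeq2 and leaving out IM replicate 1 (adjusted p down to 0.0342 when 1 library was left out). Apoe was 2.06-fold lower (adjusted p = 0.203 by limma, 0.00995 by DESeq2) and Plin2 2.39-fold lower (adjusted p = 0.306 by limma, 0.00305 by DESeq2). The median log2 difference was -0.71 for the 10 genes and -0.26 for all tested genes. Abca1 changed sign when sNAM replicate 2 was left out (log2 difference 0.19, not called). Spp1 and Lpl had higher means in sNAM, Spp1 with 4206 ± 3155 in sNAM and 1156 ± 1382 in IM and overlapping libraries (adjusted p = 0.606; called higher without IM replicate 2, adjusted p = 0.0112).

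After the punch, the resident nerve-associated macrophages had higher means for 9 of the 10 genes, Cd36 being the exception, and the principal limma fit again called none. By log2 difference, 58% of all tested genes were higher in injsNAM than in sNAM. Limma called 0% of the 8656 genes in this comparison, with 586 genes (6.77%) at an unadjusted p under 0.05, Apoe, Gpnmb and Fabp5 among them, whereas edgeR called 85 higher and 50 lower and DESeq2 432 higher and 293 lower. Values of all 3 injsNAM libraries lay above all 3 sNAM libraries for Apoe, Lpl, Fabp5, Plin2 and Gpnmb, 5 of 10, against 7.35% of tested genes, and none wholly below, against 4.69%. Gpnmb was 5.69-fold higher by group means (9.29-fold without sNAM replicate 1; log2 difference 2.62, 95% interval 0.82 to 4.41, adjusted p = 0.561). Apoe was 3.77-fold higher (95% interval 0.90 to 3.09 on the log2 scale, adjusted p = 0.553), Fabp5 3.33-fold (adjusted p = 0.682) and Plin2 2.79-fold (adjusted p = 0.745). Apoe, Fabp5 and Gpnmb were called higher by edgeR with TMM factors, and these with Plin2 by DESeq2, by limma with 1 spread and by edgeR when it kept the deposited scaling. The median log2 difference was 1.40 for the 10 genes and 0.14 for all tested genes. Whether the response to the punch differed between both populations was tested as an interaction, which called none of the 10 genes and 0% of all genes (444, or 5.13%, at an unadjusted p under 0.05; 145 higher and 83 lower with DESeq2, 19 and 7 with edgeR). Apoe had the lowest unadjusted p of the 10 genes for the interaction (log2 difference 1.47, 95% interval 0.34 to 2.60, adjusted p = 0.839).

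Within the punched ear, recruited nerve-associated macrophages differed from interstitial ones in 3 of 10 genes, Apoe higher and Cd36 and Gpnmb lower, where 3.19% of tested genes were higher and 4.34% lower (7.53% in all). Without the sNAM and injsNAM libraries, Cd36 and Gpnmb were called and Apoe was not. The median of the 10 genes was -0.23 and that of all tested genes -0.02. DESeq2 called 1 of the 10 and edgeR none. Apoe and Spp1 lay wholly above in recsNAM, against 11.4% of tested genes, and Cd36 and Gpnmb wholly below, against 12.5%. Resident and interstitial macrophages of the punched ear differed in none of the 10 by limma, where 0.485% of tested genes were called (1015 at an unadjusted p under 0.05; edgeR also none of the 10, DESeq2 Gpnmb). Cd36 and Gpnmb lay wholly below in injsNAM, against 12% of tested genes, and none wholly above, against 8.92%. Recruited against resident nerve-associated macrophages likewise gave none of the 10, and 0% of tested genes (619 at an unadjusted p under 0.05; 4 higher and 2 lower with edgeR, 93 and 61 with DESeq2). Abca1 alone lay wholly above in recsNAM, against 7.29% of tested genes, and none wholly below, against 6.4%. Intervals for that comparison were wide, -2.41 to 3.25 for Spp1 and -0.34 to 1.10 for Apoe, and differences within them could not be detected here.

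Markers of other cell types moved with these comparisons. In injIM against IM, mast cell markers (8 of 8, none at 0) summed to 206 to 226 CPM in injIM and 433 to 608 in IM, T and NK cell markers (7 of 7, up to 2 at 0, Trac in every library) to 176 to 233 in injIM and 62.4 to 95.9 in IM, and dendritic cell markers (9 of 9, up to 2 at 0) to 105 to 268 in injIM and 268 to 643 in IM. In recsNAM against injIM, T and NK cell markers summed to 365 to 495 CPM in recsNAM and 176 to 233 in injIM, dendritic cell markers to 360 to 549 in recsNAM and 105 to 268 in injIM, mast cell markers to 135 to 183 in recsNAM and 206 to 226 in injIM, and fibroblast markers (7 of 7, up to 2 at 0) to 50.5 to 272 in recsNAM and 282 to 1051 in injIM. Schwann cell markers (7 of 7) summed to 902 to 1204 CPM in recsNAM, with 2 to 4 at 0, and to 2275 to 2957 in injIM, with up to 2 at 0. In injsNAM against injIM, dendritic cell sums were 443 to 972 CPM in injsNAM and 105 to 268 in injIM, T and NK cell sums 346 to 731 in injsNAM and 176 to 233 in injIM, Schwann cell sums 1148 to 1795 in injsNAM and 2275 to 2957 in injIM, mast cell sums 0.958 to 78.3 in injsNAM and 206 to 226 in injIM, and fibroblast sums 0.355 to 38.8 in injsNAM and 282 to 1051 in injIM. In injsNAM against sNAM, dendritic cell sums were 443 to 972 CPM in injsNAM and 1659 to 3110 in sNAM, without overlap. In sNAM against IM, dendritic cell sums were 1659 to 3110 CPM in sNAM and 268 to 643 in IM, T and NK cell sums 481 to 735 in sNAM and 62.4 to 95.9 in IM, Schwann cell sums 866 to 1642 in sNAM and 2609 to 3449 in IM, and fibroblast sums 6.33 to 52.5 in sNAM and 259 to 447 in IM. Of the dendritic cell markers, Flt3, Zbtb46, Ccr7 and Ccl22 lay wholly higher in sNAM than in IM and Xcr1 wholly lower. Itgae, Clec9a, Cd209a and Mgl2 overlapped. The largest in sNAM was Ccr7 (26807 ± 12512 normalized counts in sNAM and 452 ± 155 in IM). The largest in IM was Cd209a (5360 ± 2392 in sNAM and 7112 ± 3337 in IM). In both sNAM and IM the largest T and NK cell marker was Il7r (7587 ± 1703 normalized counts in sNAM and 1304 ± 250 in IM). Cd3e, Cd3d, Cd3g, Nkg7 and Thy1 overlapped between sNAM and IM but all had higher means in sNAM. Cd3e measured 1039 ± 898 in sNAM and 34.4 ± 21.6 in IM, and Cd3g 1285 ± 1432 in sNAM and 21.8 ± 6.25 in IM. In sNAM replicate 2, Cd3g, Nkg7 and Thy1 were at 0. Il7r was thus the largest part of these T and NK cell sums, and the other markers added to the difference. Mast cell sums ran from 0.161 to 1381 CPM within sNAM alone, highest in replicate 2. In injsNAM and sNAM, up to 7 of the 8 mast cell markers and up to 5 of the 7 fibroblast markers were at 0. Their part in the results was not tested.

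The wider pathway was followed in 6 lists of other genes. Beside the lipid-associated set, lysosomal and surface genes of lipid-laden macrophages (the Trem2 and lysosome list) rose in injIM against IM in 5 of 21 tested genes and fell in none, with a median of 0.19 on the log2 scale. Of all tested genes, 4.15% were higher in this comparison. Ctsd, a lysosomal aspartic protease, measured 48112 ± 7807 in injIM and 27535 ± 2307 in IM (log2 difference 0.79, adjusted p = 0.000173). Ctsl, a lysosomal cysteine protease, measured 35492 ± 7248 in injIM and 18283 ± 2024 in IM (log2 difference 0.94, adjusted p = 0.0003). Both calls held without any 1 library, while the count of 5 was 3 after dropping IM replicate 1, IM replicate 3 or injIM replicate 2, and 2 after dropping injIM replicate 1. Limma with 1 spread and both edgeR fits called no gene of any of the 6 lists in injIM against IM, and DESeq2 called only Ctsd and Hilpda. Trem2 itself was listed at 0 in every library, as was Cxcl16, and Acadvl, an enzyme that nearly every cell uses, reached at most 1.56, so a 0 in this table does not show that a gene was silent.

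LXR and efflux genes rose in 2 of 15 (Scd2 and the lipoprotein receptor Scarb1), lipid droplet genes in 2 of 12, lipoprotein receptors in 2 of 11 (Scarb1, which is in both lists, and Sort1) and PPAR and fatty acid genes in 2 of 16, with none lower in these lists, where 4.15% of all tested genes were higher. Hilpda, which blocks droplet lipolysis, measured 5785 ± 1977 in injIM and 2442 ± 729 in IM (log2 difference 1.20, adjusted p = 0.000608). Scarb1, the scavenger receptor for high-density lipoprotein, measured 1908 ± 338 in injIM and 834 ± 178 in IM (log2 difference 1.11, adjusted p = 0.00024). Both held when any 1 library was dropped, and Scarb1 was not called by DESeq2. The PPAR pair, Acsl1 and Cpt1a, lost both calls if IM replicate 1, IM replicate 3 or injIM replicate 2 was dropped, and Soat1 of the droplet list was lost without injIM replicate 1 (adjusted p = 0.0974). Sterol synthesis genes fell in 3 of 18 and rose in none, where 4.03% of all tested genes were lower. Their regulator Srebf2 measured 2675 ± 674 in injIM and 3881 ± 577 in IM (log2 difference -0.54, adjusted p = 0.0489), and Cyp51, a sterol demethylase, measured 683 ± 127 in injIM and 1323 ± 158 in IM (log2 difference -0.87, adjusted p = 0.0214). The count was 0 after dropping IM replicate 3, injIM replicate 1 or injIM replicate 3, and 1 after dropping IM replicate 1, IM replicate 2, injIM replicate 2, sNAM replicate 1, sNAM replicate 3 or any 1 recsNAM library. The medians of the 6 lists lay between -0.17 and 0.23, against 0.61 for the lipid-associated set.

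**Figure D3:**
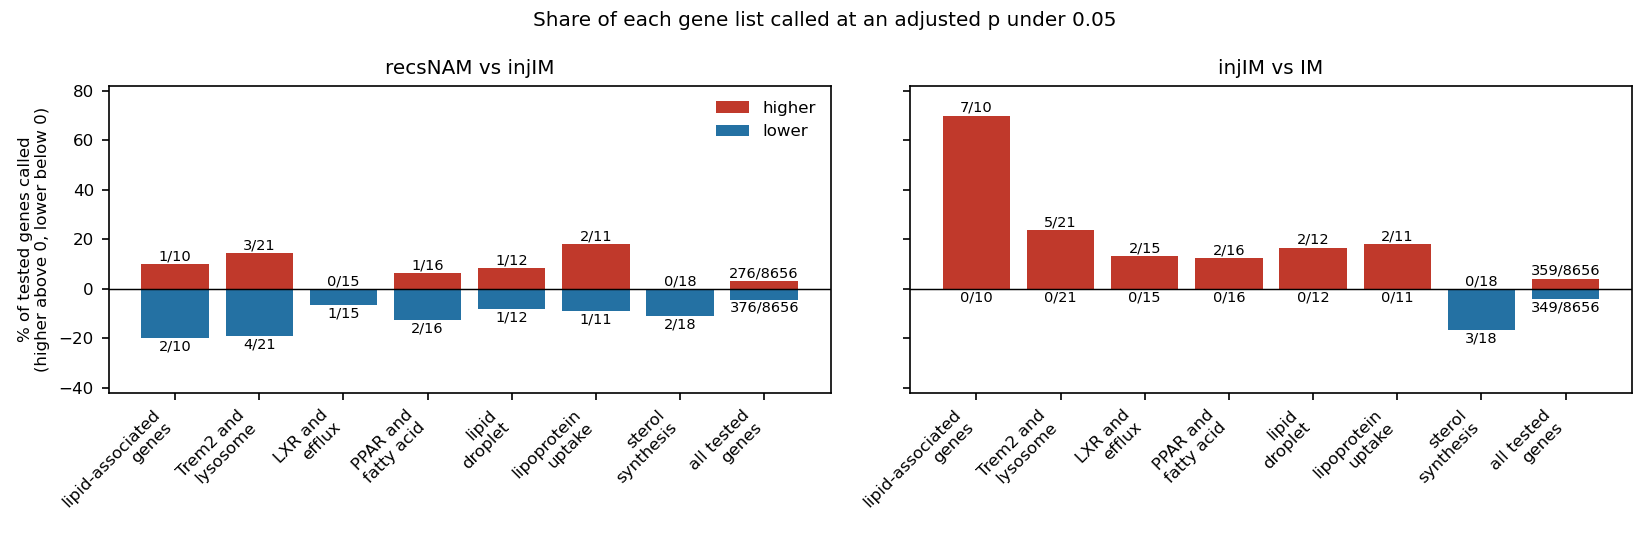
Percent of tested genes called higher (red, above 0) and lower (blue, below 0) in the lipid-associated set, the 6 pathway lists and all tested genes, for recsNAM against injIM (left) and injIM against IM (right), with counts over the number tested. In injIM against IM the lipid-associated set had 7 of 10 genes higher, against 5 of 21 in the Trem2 and lysosome list.

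Between recsNAM and injIM the same Trem2 and lysosome list split, with 3 of 21 genes higher and 4 lower. Of all tested genes, 3.19% were higher and 4.34% lower in this comparison. Clec7a, a receptor for β-glucans, measured 5282 ± 969.9 in recsNAM and 1163 ± 57.4 in injIM (log2 difference 2.08, adjusted p = 8.81e-07), and it was called under all 28 other settings. The integrin gene Itgax measured 1644 ± 539 in recsNAM and 371 ± 65.7 in injIM (log2 difference 1.85, adjusted p = 0.0037). Genes of this list that fell included lysosomal ones. Atp6v0d2, a proton pump subunit of lysosomes, measured 543 ± 151 in recsNAM and 3522 ± 832 in injIM (log2 difference -2.50, adjusted p = 9.12e-06). Ctsl measured 16769 ± 3203 in recsNAM and 35492 ± 7248 in injIM (log2 difference -1.07, adjusted p = 0.000652), and the growth factor Igf1 3326 ± 768 in recsNAM and 7299 ± 747 in injIM (log2 difference -1.13, adjusted p = 0.000181). Dgat1, which makes triglyceride, measured 1806 ± 169.6 in recsNAM and 717 ± 169 in injIM (adjusted p = 0.0011), and Pltp, a phospholipid transfer protein and LXR target, 15813 ± 3542 in recsNAM and 28651 ± 3687 in injIM (log2 difference -0.87, adjusted p = 0.00205). The calls of these 7 genes held without any 1 library. Of the other lists, the droplet list had 1 gene higher and 1 lower of 12, the lipoprotein receptors 2 and 1 of 11, the LXR genes 0 and 1 of 15, the PPAR genes 1 and 2 of 16 and the sterol genes 0 and 2 of 18. Of these 11 calls, Dgat1, Pltp and Lrpap1 were kept and the other 8 were lost when injIM replicate 1 was left out. Clec7a was the only gene of the 6 lists that limma with 1 spread and both edgeR fits called between recsNAM and injIM. Clec7a was also higher in injsNAM than in injIM (adjusted p = 0.0233), a call lost without any 1 of the injsNAM libraries (adjusted p up to 0.149). In sNAM against IM, where 0.508% of all tested genes were lower, 3 of 21 genes fell, Atp6v0d2 (278 ± 476 in sNAM and 4387 ± 838 in IM), Ctsl and Grn. None was called without sNAM replicate 1, and 1 was called without IM replicate 3, sNAM replicate 2, sNAM replicate 3 or any 1 injsNAM library; over the other fits the count ran from 0 to 7.

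The members also differed in which other genes followed their pattern over the 15 libraries. By Pearson correlation of log2(value + 100), the closest tested genes to Gpnmb were Ctsl (r = 0.924), Lrp12 (0.921) and Wsb2 (0.919), and those to Fabp5 were Gde1 (0.921), Ctsd (0.912) and Vill (0.908). The closest to Spp1 were Sema4d (0.967), the lactate transporter gene Slc16a3 (0.935) and Adgre5 (0.929). Apoe and Plin2 shared Gpx3, a secreted glutathione peroxidase, among their closest (0.933 and 0.929). Cd36 was closest to Wwp1 (0.88), Sema6a (0.865) and Comp (0.853). These are descriptions over libraries that fall into 5 groups and share their depth, and they carry no test.

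**Figure D4:**
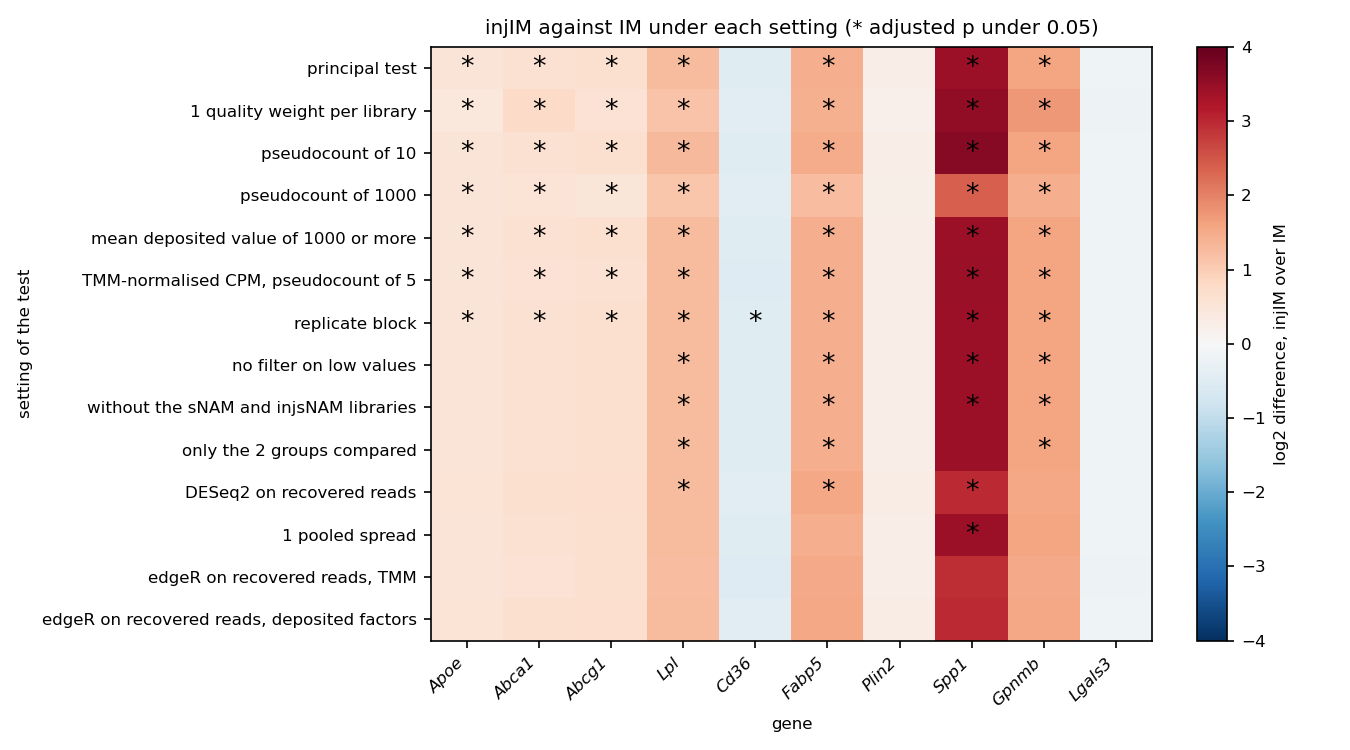
Log2 difference of injIM over IM (colour) for each of the 10 genes under the principal test and 13 other settings, with a star where the adjusted p was under 0.05. Differences keep their sign in every setting shown, while the number of stars runs from 8 under the replicate block to 0 in both edgeR fits.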

How the data were processed

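RNA was sequenced from macrophages sorted from the ears of 3 mice (SMARTer v4 and Nextera XT libraries, per the labels' protocols). The deposited signal values are the authors' read counts scaled by 1 factor per library; all values are whole multiples, within 0.01, of the smallest value of their library, so whole reads were recovered. The submitters' processing notes name bcl2fastq 2.18, cutadapt, STAR 2.7.2b, R 3.6.1, DESeq2 1.24.0 and mm10; for the counter, the annotation and strandedness, nothing is given in the sources used here. Groups follow the sample titles, all 15 columns were used, and no label ties libraries to mice, so p-values measure the spread between libraries.

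Genes with a mean value of at least 100 (8656) were fitted as log2(value + 100) with limma 3.58.1 in R 4.3.3 (trend, robust, 1 weight per group) over all 15 libraries. The test gave 7 comparisons, with Benjamini-Hochberg adjustment over all 8656 genes and calls at an adjusted p under 0.05. Fits were tested on simulated data. Alternatives were edgeR 4.0.16 and DESeq2 1.42.0 on recovered reads, other weights, pseudocounts, filters and scaling, a replicate block, and leaving out each library. The genes and lists were chosen with earlier results of these data known. Named list genes are up to 3 per list, direction and comparison with the largest called differences, of which a part is given, and likeness names the 3 genes of highest correlation. Positions and promoters are RefSeq and GENCODE annotations of GRCm38 (mm10).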

Additional observations from a re-analysis of the deposited data

How the results depend on the processing

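No called gene of the set changed sign under any setting run. With 1 spread for all groups, the numbers of the 10 genes called were 4 in sNAM against IM, 1 in injIM against IM, 4 in injsNAM against sNAM and 0 in recsNAM against injIM. With edgeR and TMM factors they were 1, 0, 3 and 0 in the same order of comparisons, with edgeR and the deposited factors 2, 0, 4 and 0, and with DESeq2 5, 3, 4 and 1, plus 1 in injsNAM against injIM. In sNAM against IM, 1 gene was called with a quality weight per library, with a filter at 1000, with TMM-normalised CPM and when only these 2 groups were fitted. No filter gave 4 in injIM against IM and 1 in recsNAM against injIM. Only the 2 groups compared gave 3 in injIM against IM, and leaving out the sNAM and injsNAM libraries gave 4; both were chosen after seeing the data. Leaving out 1 library gave 0 to 2 genes in sNAM against IM, 4 to 7 in injIM against IM and 2 to 4 in recsNAM against injIM. With the replicate block, 1 gene was called in sNAM against IM, 8 in injIM against IM and 5 in recsNAM against injIM. Same-numbered libraries had correlations of deviations from -0.021 to 0.388. No pair of groups had all above 0.1, and the nearest, injIM and recsNAM, had a lowest of 0.0926. In 44 of 60 checks of a library against the 3 libraries of another group, the same-numbered library correlated best. That is more often than an even choice among the 3 would give. The labels do not say whether libraries of the same number share a mouse, and the principal fit left them unpaired. Why the numbers of called genes moved between settings was not tested. Over all genes, injIM against IM gave 359 higher and 349 lower by limma, 31 and 33 by DESeq2 and 10 and 8 with 1 spread. The depth of sNAM replicate 2 (5.636 M reads) and the spread of both resident nerve-associated groups limit every comparison that uses them.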
